A study of Mus musculus with 30 samples.

Results

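The proteasome is the large protease that degrades ubiquitin-marked proteins in the cytosol and nucleus. Its core particle is a stack of alpha and beta rings. The alpha subunits (Psma genes) gate the entry, and among the beta subunits (Psmb genes) Psmb5, Psmb6 and Psmb7 carry the chymotrypsin-like, caspase-like and trypsin-like sites. The regulatory particle caps the core. In it a ring of ATPases (Psmc genes) unfolds substrates, and non-ATPase subunits (Psmd genes) form the scaffold, bind ubiquitin and remove it. The transcription factor NFE2L1 is known to raise proteasome subunit genes together through antioxidant response elements when proteasome activity is short, and p53 itself is degraded by the proteasome after ubiquitination by Mdm2.

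The 32 genes described here are the 7 alpha subunits Psma1 to Psma7, the 7 beta subunits Psmb1 to Psmb7, the 6 ATPases Psmc1 to Psmc6, and 12 non-ATPase subunits (Psmd1 to Psmd8 and Psmd11 to Psmd14). They were taken by name, each through its probe set with the highest mean signal over all 30 arrays. All 32 of the 32 listed genes were on the array and above the limit on low signal, out of 12674 genes tested. The text gives log2 values of the normalised array signal, and differences are log2 differences. A gene is called higher or lower at a limma p-value below 0.05 after Benjamini-Hochberg adjustment over all tested genes.

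RNA came from mouse embryonic fibroblasts (strain C57BL/6 x 129SvJ, from E13.5 embryos) homozygous for the p53 LSL allele, which stays silent until Cre recombinase removes a stop cassette. In the time course the cells had an adenovirus carrying Cre (AdenoCre, which restores p53, 5 arrays) or GFP (AdenoGFP, 5 arrays) for 24 h, with 1 array of each at 0 h (no drug) and after 1, 3, 6 and 9 h of 500 nM doxorubicin, a DNA-damaging drug. Both siRNA experiments used AdenoCre cells (24 h), then siRNA for 24 h and 100 nM doxorubicin for 13 h, so every siRNA group, controls included, had been given Cre and the drug. The lincP21KD experiment had siP53 (3 arrays), siLincp21 (3 arrays, against the p53-induced long noncoding RNA lincRNA-p21) and siScramble (2 arrays). The hnRNPKKD experiment had siP53, siLincp21, siHnrnpk (against the RNA-binding protein hnRNP-K) and siControl, with 3 arrays each. AdenoCre and AdenoGFP cells differ in Cre and GFP as well as in p53, so restored p53 and other effects of the viruses cannot be told apart. The labels do not say whether arrays of a group came from separate cultures, so p-values measure the spread between these arrays, which may be technical. In RNA from whole cultures, fewer cells expressing a gene and less RNA per cell cannot be told apart.

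Hnrnpk had 8.38, 8.34 and 9.94 with siHnrnpk, against 12.68, 12.03 and 12.47 with siControl. The p53 targets Cdkn1a and Mdm2 were called lower with siP53 in both experiments and higher with AdenoCre. Of the fibroblast markers, 8 of 8 lay above the signal limit. So did 4 of 6 macrophage, 1 of 5 endothelial, 2 of 5 epithelial, 3 of 5 skeletal muscle and 5 of 5 neural markers. Among these Acta1 reached 11.89, Ncam1 11.78 and Epcam 7.69 on the highest array. The markers Ptprc, Adgre1, Pecam1, Cdh5, Cdh1 and Myod1 lay below the limit. The beta-actin control probe sets at the 3′ and 5′ ends of the transcript differed by 0.15 to 0.24 in the time course and by 0.12 to 0.33 in the lincP21KD experiment. In the hnRNPKKD experiment that difference ran from 0.17 to 1.14, and it was over 0.5 on 4 arrays. These were siP53 replicates 1 (0.69) and 3 (1.14), siLincp21 replicate 3 (0.76) and siControl replicate 1 (0.53). A larger difference is read as RNA that is shorter or less well copied towards its 5′ end. For the subunits, results that rest on these arrays are given with and without them. The other genes around the proteasome, described last, were not tested without them.

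In the hnRNPKKD experiment, 8 of the 32 subunits fell with siLincp21 and none was called higher (limma), and 13 had an unadjusted p under 0.05. Over all tested genes 11.8% were called lower and 17.2% higher in that comparison. The fold was small and shared: 29 of 32 subunits had a mean below that of siControl, and their median difference was -0.28, against 0.0087 for all tested genes. By role, 4 of 7 alpha subunits, 2 of 6 ATPases and 2 of 12 non-ATPase subunits were called lower, against 0 of 7 beta subunits. The classes had alike medians, of -0.25 for the alpha ring, -0.25 for the beta ring, -0.29 for the ATPases and -0.28 for the non-ATPase subunits. In 20 of 32 subunits (62.5%) all siLincp21 arrays lay below all siControl arrays, where 21.3% of all tested genes did so. None had the opposite separation, which 25.8% of all tested genes had.

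**Figure D1:**
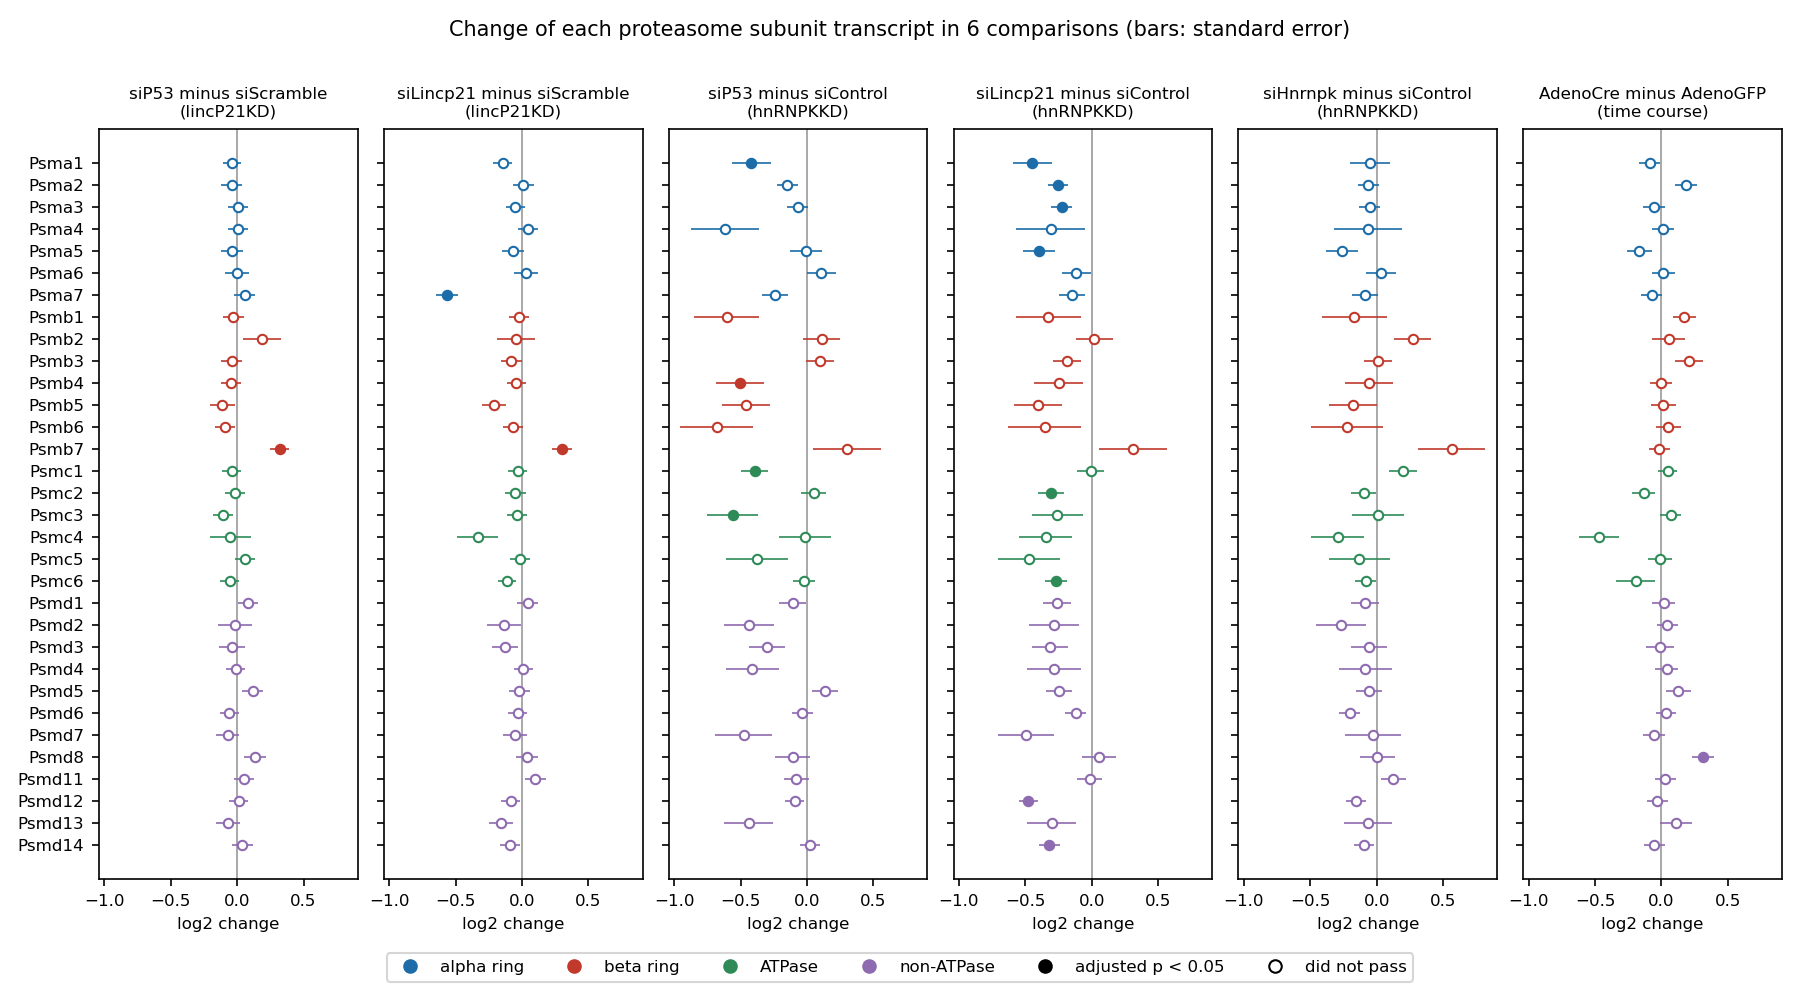
Log2 change of each of the 32 subunit transcripts (points, with standard errors) in 5 siRNA comparisons and between AdenoCre and AdenoGFP, coloured by class, with filled points for an adjusted p under 0.05. The panel of siLincp21 against siControl holds 8 filled points, all left of 0, while the panel of siHnrnpk against siControl holds none.

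Psmd12, a subunit of the lid of the regulatory particle, had the smallest adjusted p of the 32. It had 11.28, 11.25 and 11.22 with siLincp21, against 11.72, 11.72 and 11.75 with siControl. The groups were far apart beside their spread, with SDs of 0.030 with siLincp21 and 0.019 with siControl (n = 3 each). The limma log2 change was -0.48 ± 0.074 (SE, adjusted p = 0.000417), a signal 0.718 times that of siControl. Psmd12 had 11.68, 11.63 and 11.60 with siP53 and 11.58, 11.61 and 11.54 with siHnrnpk. These 6 arrays lay above every siLincp21 array and below every siControl array, and neither siRNA was called against siControl. Set directly against siLincp21, Psmd12 was called higher with siP53 (0.38 ± 0.074, adjusted p = 0.00113, limma) and with siHnrnpk (0.32 ± 0.074, adjusted p = 0.00578, limma).

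Psmd14, the deubiquitinase that removes the ubiquitin chain as the substrate enters, had 11.97, 12.01 and 12.02 with siLincp21, against 12.26, 12.40 and 12.29 with siControl. The groups did not overlap, and the limma log2 change was -0.32 ± 0.077 (SE, n = 3 each, adjusted p = 0.00754). With siP53 it had 12.32, 12.34 and 12.37 and with siHnrnpk 12.25, 12.24 and 12.18. All of these lay above the siLincp21 arrays, and in the direct limma tests against siLincp21 Psmd14 was higher with siP53 (0.34, adjusted p = 0.00329) and with siHnrnpk (0.23, adjusted p = 0.0449). The last of these calls held under 9 of 17 alternatives. Both Psmd12 and Psmd14 kept their siLincp21 call when any 1 array was left out, without the 4 arrays of high actin difference (-0.47 for Psmd12 and -0.36 for Psmd14) and with that difference as a covariate.

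Among the alpha subunits, Psma1 had 11.57, 11.39 and 11.16 with siLincp21, against 11.83, 11.79 and 11.86 with siControl. Its log2 change was -0.45 ± 0.15 (SE, n = 3 each, limma adjusted p = 0.0371), and the siLincp21 arrays were all lower but further apart than the siControl arrays. With the mean of all 4 Psma1 probe sets, 2 of them below the signal limit, in place of the one used, the change was -0.15 (adjusted p = 0.164) with siLincp21 and -0.14 (adjusted p = 0.186) with siP53, so neither call held. The siLincp21 call was also lost on leaving out siLincp21 replicate 2 or 3 or any siControl array, with changes from -0.47 to -0.34. Psma2 fell by 0.25, Psma3 by 0.23 and Psma5 by 0.40, with adjusted p-values of 0.0272, 0.0478 and 0.0278. Of 17 alternatives, 11 kept the call of Psma2, 6 that of Psma3 and 13 that of Psma5. Psma3 stood closest to the threshold and had 13.05, 13.05 and 13.08 with siLincp21, against 13.33, 13.27 and 13.26 with siControl. Psma5 had 12.67, 12.62 and 12.75 with siLincp21, against 13.29, 12.90 and 13.05 with siControl.

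The 2 ATPases that fell were Psmc2 and Psmc6, members of the ring that pulls substrates into the core. Psmc2 had 13.08, 13.05 and 13.14 with siLincp21, against 13.45, 13.38 and 13.37 with siControl, a change of -0.31 ± 0.096 (SE, n = 3 each, limma adjusted p = 0.0295). Psmc6 had 12.39, 12.32 and 12.41 with siLincp21, against 12.68, 12.64 and 12.60 with siControl, a change of -0.27 ± 0.082 (SE, n = 3 each, limma adjusted p = 0.0271). No array of either siLincp21 group reached the lowest siControl array. Of 17 alternatives, 11 kept the call of Psmc2 and 12 that of Psmc6. The largest decrease in the mean belonged to Psmd7, the structural partner of Psmd14, at -0.49 ± 0.21 (adjusted p = 0.101), which did not pass. The 2 highest changes, of Psmb7 (0.31 ± 0.25, adjusted p = 0.405) and Psmd8 (0.056), did not pass either.

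The beta ring had a median as low as the other classes and no call. Psmb5, the chymotrypsin-like site, had 11.50, 11.58 and 11.23 with siLincp21, against 11.73, 11.94 and 11.84 with siControl (-0.40 ± 0.18, limma adjusted p = 0.115). All its siLincp21 arrays were below all siControl arrays, with replicate 3, which has a high actin difference, the lowest. Psmb3, a structural beta subunit, had 12.98, 13.03 and 13.12 with siLincp21, against 13.29, 13.28 and 13.13 with siControl (-0.19, adjusted p = 0.212). Psmb3 also did not overlap, but by a narrow margin. Psmb1, Psmb2, Psmb6 and Psmb7 overlapped between siLincp21 and siControl. Among the regulatory subunits that did not pass, the base scaffold Psmd2 (-0.29), the ubiquitin receptor Psmd4 (-0.28) and the ATPases Psmc3 and Psmc5 had all siLincp21 arrays below siControl.

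**Figure D2:**
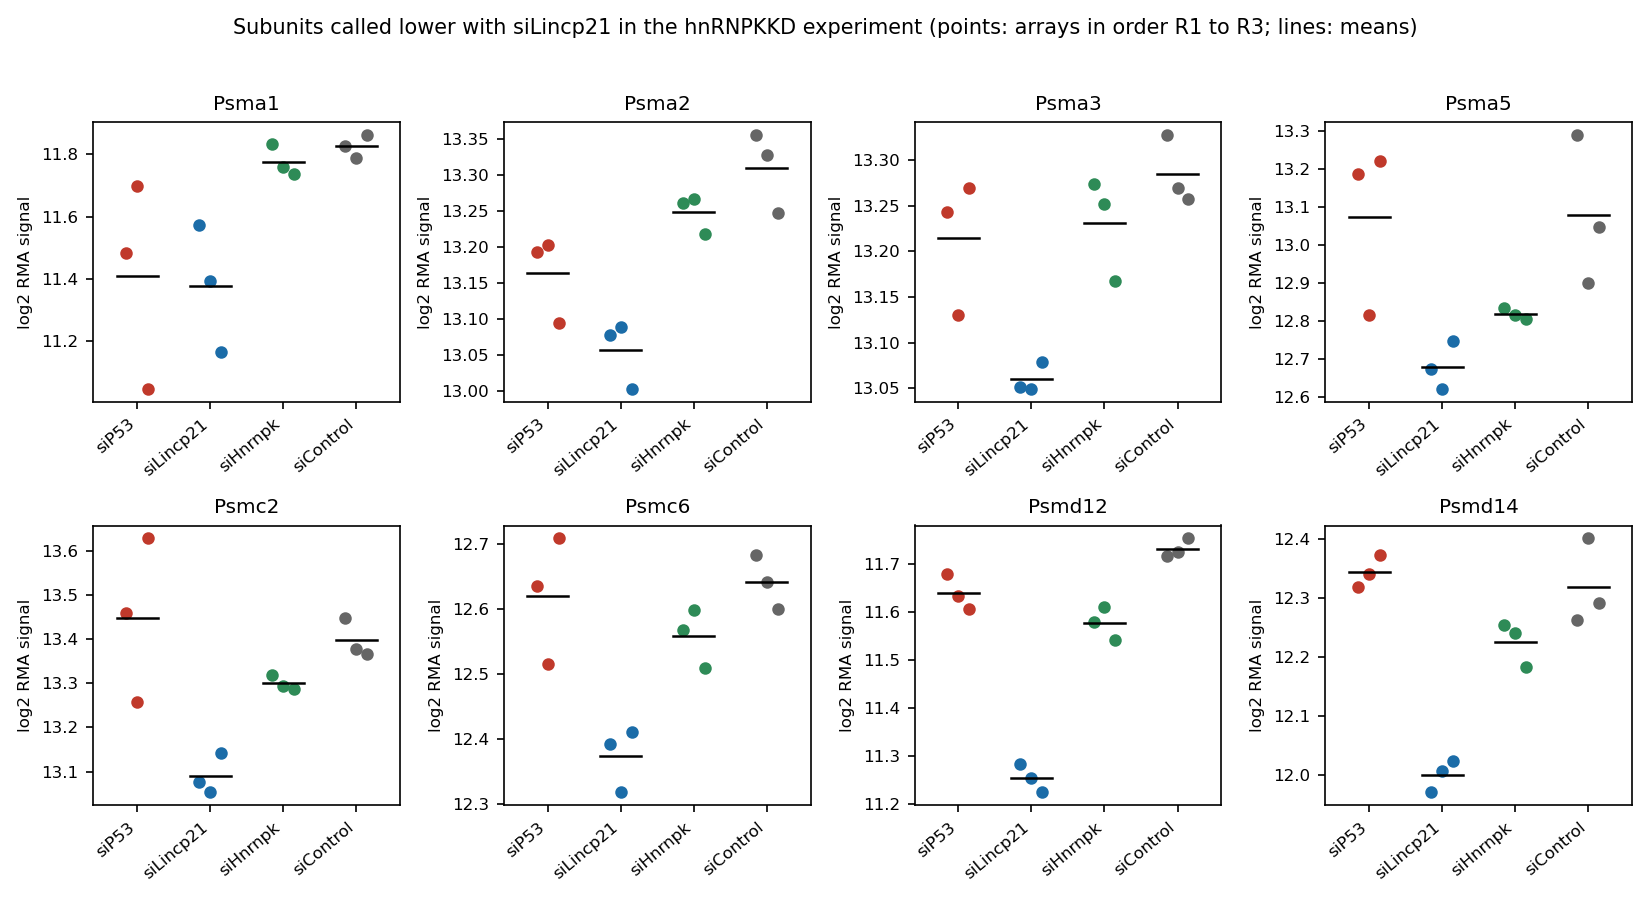
Log2 signal on each hnRNPKKD array (points, replicates 1 to 3 from left to right within a group, with lines at the means) for the 8 subunits called lower with siLincp21. In each panel the 3 siLincp21 points lie below the 3 siControl points, and in the Psmd12 and Psmd14 panels also below the siP53 and siHnrnpk points.

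The number of calls depended on the arrays in the fit. Leaving out 1 array of either group gave 2 to 4 subunits lower instead of 8, with siLincp21 replicate 2 left out giving 2, siLincp21 replicate 1 or 3 or siControl replicate 1 or 2 giving 3, and siControl replicate 3 giving 4. Without the 4 arrays of high actin difference 16 were lower and 1 was higher. The median difference stayed between -0.33 and -0.20 over all 17 alternatives. Marker levels differed between the same groups. The mean of the 8 fibroblast markers lay between 12.70 and 12.76 on the siLincp21 arrays, against 12.12 to 12.29 on the siControl arrays, and that of the 5 neural markers between 7.23 and 7.42, against 6.96 to 7.09. Their part in the result was not tested.

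A second probe set above the signal limit and within 3 log2 units of the one used was there for 12 of the 32 subunits. For siLincp21 in the hnRNPKKD experiment, 11 of these 12 second probe sets also had a mean below siControl. Psma5 had -0.80 on its second probe set and -0.40 on the one used, Psmc2 had -0.59 and -0.31, and Psmc6 had -0.59 and -0.27. The exception was Psmd6, a lid subunit, with 0.26 on the second probe set and -0.12 on the one used.

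Promoters of 3 subunits from this group are printed here because their transcripts moved with siLincp21. Psma1 was also called with siP53, and Psmd12 and Psmd14 had the smallest adjusted p-values. The sequences are the 250 bases before the annotated gene start from RefSeq (GRCm38.p6), on the strand of the gene from 5′ to 3′. Capitals mark the CCAAT box, in either orientation, in Psma1 (chr7:114276117-114276366, minus strand) and Psmd14 (chr2:61711444-61711693, plus strand), and the antioxidant response element core TGACNNNGC, in either orientation, in Psmd12 (chr11:107479278-107479527, plus strand).
Psma1: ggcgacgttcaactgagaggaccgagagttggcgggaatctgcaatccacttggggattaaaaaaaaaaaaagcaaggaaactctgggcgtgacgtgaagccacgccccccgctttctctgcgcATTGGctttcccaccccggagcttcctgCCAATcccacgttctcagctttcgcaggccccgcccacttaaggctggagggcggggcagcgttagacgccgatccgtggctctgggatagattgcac
Psmd12: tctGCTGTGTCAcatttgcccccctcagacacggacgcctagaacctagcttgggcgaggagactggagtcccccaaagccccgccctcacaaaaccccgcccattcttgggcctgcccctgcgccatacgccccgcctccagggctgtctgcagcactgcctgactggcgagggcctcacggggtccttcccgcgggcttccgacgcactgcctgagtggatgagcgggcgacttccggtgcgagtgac
Psmd14: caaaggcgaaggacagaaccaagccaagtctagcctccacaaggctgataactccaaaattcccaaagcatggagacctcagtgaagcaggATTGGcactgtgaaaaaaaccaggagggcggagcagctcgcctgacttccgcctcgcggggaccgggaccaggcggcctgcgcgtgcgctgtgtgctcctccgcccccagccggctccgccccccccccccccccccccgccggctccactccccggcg

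Of the 32 subunits, 26 had a promoter in the table, in 28 entries. Psmb1, Psmb2, Psmb7, Psmc3, Psmd3 and Psmd7 are named only. The core TGACNNNGC, searched on both strands, was in 4 of the 28 entries (14.3%), against 10.2% of all 32851 promoters of the same length. These were Psmb5, 47 bases before the start, Psmb6 (9 bases), Psmc6 (227 bases) and Psmd12 (247 bases). CCAAT was in 10 of the 28 entries (35.7%), against 33.9% of all promoters, among them Psma1, Psma2, Psma3, Psmc2 and Psmd14. These motifs do not overlap each other in the printed promoters, and a match describes letters only.

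With siP53 in the hnRNPKKD experiment 4 subunits fell and none was called higher (limma), where 19.2% of all tested genes were lower and 19.3% higher. They were Psma1 of the alpha ring, Psmb4 of the beta ring and the ATPases Psmc1 and Psmc3. Psmc1 had 11.36, 11.51 and 11.09 with siP53, against 11.71, 11.72 and 11.71 with siControl, a log2 change of -0.39 ± 0.10 (SE, n = 3 each, limma adjusted p = 0.00924). Psmc3 had 11.36, 12.11 and 11.15 with siP53, against 12.06, 12.16 and 12.09 with siControl (-0.56 ± 0.19, limma adjusted p = 0.0356). Replicates 1 and 3 were low for Psmc3, and replicate 2 lay within the siControl range. Psma1 had 11.48, 11.70 and 11.05 with siP53 (-0.42, adjusted p = 0.0400), and Psmb4 had 12.19, 12.74 and 11.80, against 12.65, 12.84 and 12.75 with siControl (-0.50, adjusted p = 0.0459).

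Of the 32, Psma1, Psma2, Psma7, Psmc1 and Psmd12 (15.6%) lay below siControl on all siP53 arrays, against 20.8% of all tested genes, and none lay above, against 21.2%.

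The lowest means with siP53 were not called, and the siP53 arrays were far apart. Psmb6, the caspase-like site, had 11.14, 12.12 and 10.73 with siP53, against 11.75, 12.15 and 12.13 with siControl (-0.68 ± 0.27, adjusted p = 0.0674). Psma4 of the alpha ring had 11.43, 12.20 and 10.81 with siP53, against 11.96, 12.20 and 12.14 with siControl (-0.62 ± 0.26, adjusted p = 0.0774). In both, replicates 1 and 3 lay below siControl and replicate 2 did not. The 2 highest differences, of Psmb7 (0.30) and the base assembly chaperone Psmd5 (0.14), did not pass. Over the 32 subunits the median SD was 0.30 within siP53, 0.094 within siLincp21, 0.039 within siHnrnpk and 0.093 within siControl, against 0.20 within siP53 for all tested genes.

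Subunit values were ordered by the beta-actin 3′ minus 5′ difference. In 20 of 32 subunits the siP53 arrays fell in the order of that difference (replicates 2, 1, 3), as did 27.6% of all tested genes, and in 7 they rose in that order, as did 37.2%. Within siLincp21 the counts were 19 falling and 5 rising, against 18.9% and 25.2% of all tested genes. Within siHnrnpk 8 fell and 10 rose (21.7% and 17% of all tested genes), and within siControl 17 fell and 2 rose (18.1% and 25.6%). With the actin difference as a covariate beside the 4 groups, 19 subunits had a negative slope and 5 a positive one at an adjusted p under 0.05 (limma), against 19.9% and 26.1% of all tested genes.

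The slopes differed widely between subunits. Psmb6 had -1.47 ± 0.13 log2 per unit of actin difference, Psma4 -1.41 ± 0.087, Psmb7 -1.35 ± 0.14 and Psmb1 -1.32 ± 0.11 (SE, 12 arrays). At the other end Psmc4 had 0.62 ± 0.27, Psma5 0.46 ± 0.13 and Psma6 0.45 ± 0.096. Psmd12 (-0.040 ± 0.089) and Psmd14 (0.020 ± 0.097) lay within their errors of 0. Among the 4 subunits called lower with siP53 the slopes were -0.66 for Psma1, -0.96 for Psmb4, -0.40 for Psmc1 and -0.98 for Psmc3.

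**Figure D3:**
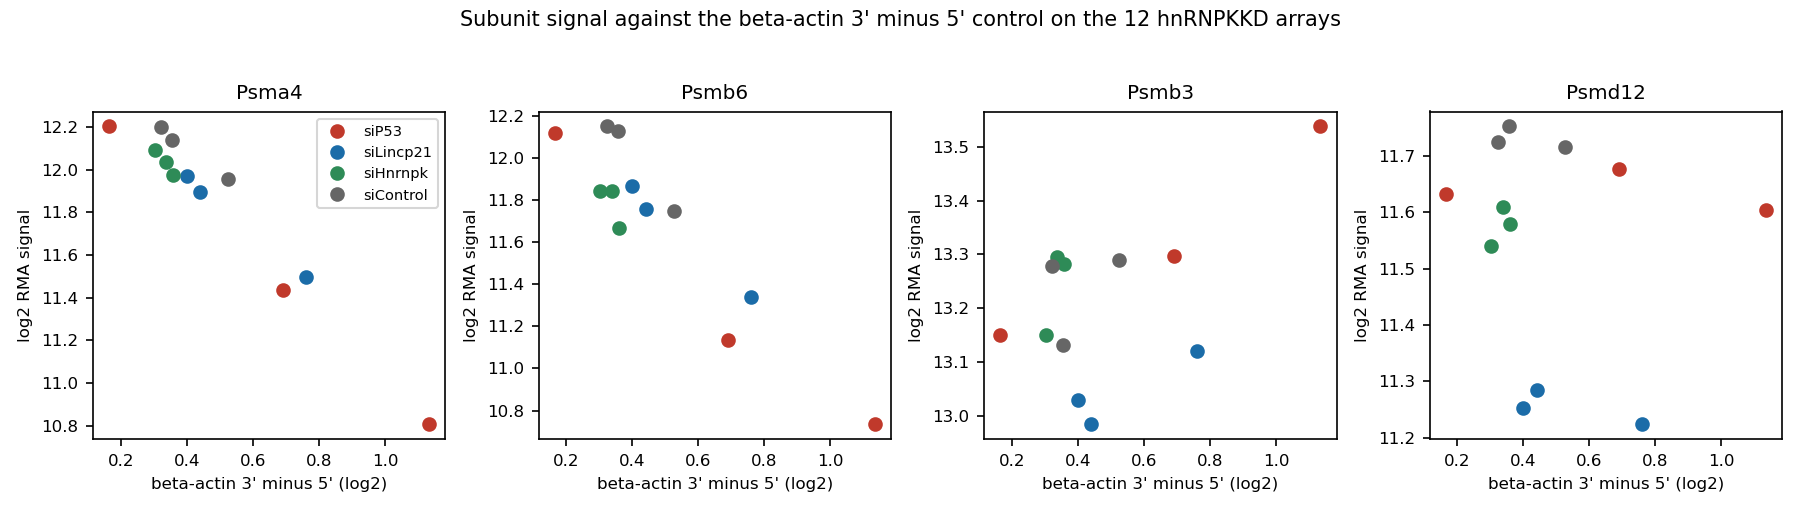
Log2 signal of Psma4, Psmb6, Psmb3 and Psmd12 on the 12 hnRNPKKD arrays against the beta-actin 3′ minus 5′ control difference, coloured by group. Psma4 and Psmb6 lie lowest on the siP53 array with a difference of 1.14, Psmb3 lies highest there, and the siLincp21 points of Psmd12 lie below all others at every actin difference.

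Without the 4 arrays of high actin difference, which leaves siP53 replicate 2 alone in its group, the siP53 calls were gone. Psma1 was then -0.13, Psmb4 -0.057, Psmc1 -0.21 and Psmc3 -0.0089 (adjusted p from 0.108 to 0.957, limma, with the lone array taken to vary like the other groups). Psmb7 alone was called, and it was higher at 0.83 (adjusted p = 0.00202). With all arrays and the actin difference as a covariate, 10 subunits were lower and 2 higher, and the 4 were still called, at -0.24 for Psma1, -0.25 for Psmb4, -0.29 for Psmc1 and -0.30 for Psmc3. The mean of the fibroblast markers lay between 12.79 and 12.86 on the siP53 arrays, against 12.12 to 12.29 on the siControl arrays, and that of the macrophage markers between 4.92 and 5.38, against 5.87 to 5.98, and their part in the result was not tested. Leaving out siP53 replicate 2 instead gave 16 subunits lower, and leaving out any other array of the 2 groups gave 1. Probe sets of 1 gene also disagreed here: for 7 of 12 subunits the second probe set differed by more than 0.3 from the one used. Psmb4, called lower with siP53, was among these 7, with -0.081 on the second and -0.50 on the one used. Psmb3 had -0.51 on the second and 0.095 on the one used, Psmc2 -0.47 and 0.051, Psma5 -0.47 and -0.0053, and Psmd6 0.47 and -0.035. In the lincP21KD siP53 and siLincp21 comparisons none of the 12 differed by that much.

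With siHnrnpk no subunit was called in either direction (limma), where 14.1% of all tested genes were higher and 12.8% lower. Psmb7 and Psmd6 had an unadjusted p under 0.05. Of the 12 subunits with a second probe set, 1 differed by more than 0.3 from the one used. It was Psmc6, with -0.72 on the second and -0.083 on the one used. The median of the 32 subunits was -0.064, against -0.0012 for all tested genes. The highest means were those of Psmb7 (0.56 ± 0.25, adjusted p = 0.129) and Psmb2 (0.27), and the lowest those of Psmc4 (-0.29) and Psmd2, a scaffold of the base (-0.27). All siHnrnpk arrays were above siControl for Psmb2, Psmb7 and Psmc1 (9.38% of the 32, 25.2% of all tested genes) and below for 9 subunits (28.1%, against 24.2%). Psmd6 had 12.34, 12.29 and 12.27 with siHnrnpk, against 12.46, 12.58 and 12.47 with siControl (-0.20 ± 0.077, adjusted p = 0.0695, limma). It had the smallest adjusted p of the 9 and did not pass, and a second Psmd6 probe set had 0.043. Without the 4 arrays of high actin difference 2 were higher and 5 lower, and Psmb7 was among the higher ones (0.41, adjusted p = 0.00804, limma). The mean of the neural markers lay between 7.24 and 7.38 with siHnrnpk, against 6.96 to 7.09 with siControl. That of the endothelial markers lay between 4.34 and 4.44, against 4.06 to 4.20, and that of the macrophage markers between 5.77 and 5.80, against 5.87 to 5.98. Ranges of the other marker lists overlapped, and the part of marker levels in the result was not tested.

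Set directly against siLincp21, siHnrnpk gave 2 subunits higher, Psmd12 and Psmd14, and none lower, where 12.2% of all tested genes were higher and 15.4% lower. Values of 24 of the 32 subunits (75%) lay above siLincp21 on all siHnrnpk arrays, against 25% of all tested genes, and Psmd6 alone lay below on all of them, against 27.3%. Psmc6 was among the 24 with a difference of 0.18, but its second probe set had -0.13. The direct test of siP53 against siLincp21 had 6 subunits higher (Psma5, Psmc2, Psmc6, Psmd5, Psmd12 and Psmd14) and Psmc1 lower, where 17.5% of all tested genes were higher and 21.3% lower. There 10 subunits lay above siLincp21 on all siP53 arrays (31.2%, against 19.6% of all tested genes) and Psmc1 below (23.6% of all tested genes). The calls of Psmd5, Psmd12 and Psmd14 held under all 17 alternatives, that of Psmc1 under 15, Psmc2 14, Psma5 11 and Psmc6 10. With the mean of the probe sets Psmc2 had 0.20 (limma adjusted p = 0.09). Psmd5 had 11.26, 11.48 and 11.41 with siP53, against 11.03, 11.06 and 10.92 with siLincp21 (0.38, adjusted p = 0.00831, limma). In the test of siHnrnpk against siP53, Psmc1 (0.59, adjusted p = 0.000448) and Psmc3 (0.57, adjusted p = 0.0281) were higher by limma, where 22.9% of all tested genes were higher and 22.5% lower. Without overlap 3 subunits were higher (25.7% of all tested genes) and 3 lower (25.5%). Psmc1 had 11.94, 11.93 and 11.86 with siHnrnpk, all above the siP53 values. Without the 4 arrays of high actin difference the Psmc3 difference was -0.0022. These tests share arrays with the comparisons against siControl.

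The lincP21KD experiment gave 2 subunits with calls, Psma7 and Psmb7. With siLincp21, Psma7 of the alpha ring had 11.93, 12.11 and 12.11, against 12.61 and 12.63 with siScramble. Its log2 change was -0.57 ± 0.081 (SE, n = 3 and 2, limma adjusted p = 0.00284), a signal 0.676 times that of siScramble, and it was the only subunit called lower there. With siP53 it had 12.69, 12.70 and 12.63, all above the siScramble values, and the direct limma difference of siP53 minus siLincp21 was 0.62 ± 0.072 (adjusted p = 0.000317). A second Psma7 probe set had -0.59. The call held under all 14 alternatives for siLincp21, with changes from -0.62 to -0.51.

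In the hnRNPKKD experiment Psma7 had 12.55, 12.52 and 12.40 with siLincp21, against 12.63, 12.64 and 12.64 with siControl (-0.15). All siLincp21 arrays lay below all siControl arrays there too, and the change was not called. The difference between the siLincp21 effects of the experiments was 0.41 (adjusted p = 0.0587), which did not pass.

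Psmb7, the trypsin-like site, had 13.42, 13.52 and 13.45 with siP53 and 13.42, 13.496 and 13.41 with siLincp21, against 13.14 and 13.15 with siScramble. Every knockdown array lay above both siScramble arrays, and both siRNAs were called higher (siP53 0.32 ± 0.073, adjusted p = 0.0178, and siLincp21 0.30 ± 0.073, adjusted p = 0.0253, limma). The comparisons share the 2 siScramble arrays, and without either of them the calls were lost (siP53 0.31 with adjusted p = 0.128 and 0.33 with 0.109, siLincp21 0.29 with 0.169 and 0.31 with 0.129). The calls were also lost without siP53 replicate 2 (0.29, adjusted p = 0.0537) and, for siLincp21, without its replicate 1 (0.31, adjusted p = 0.0658) or 2 (0.28, adjusted p = 0.0651). In the hnRNPKKD experiment Psmb7 had 11.87, 12.71 and 11.48 with siP53, 12.18, 12.20 and 11.71 with siLincp21 and 12.18, 12.33 and 12.34 with siHnrnpk, against 11.40, 11.97 and 11.78 with siControl. Only the siHnrnpk arrays were all above siControl there.

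**Figure D4:**
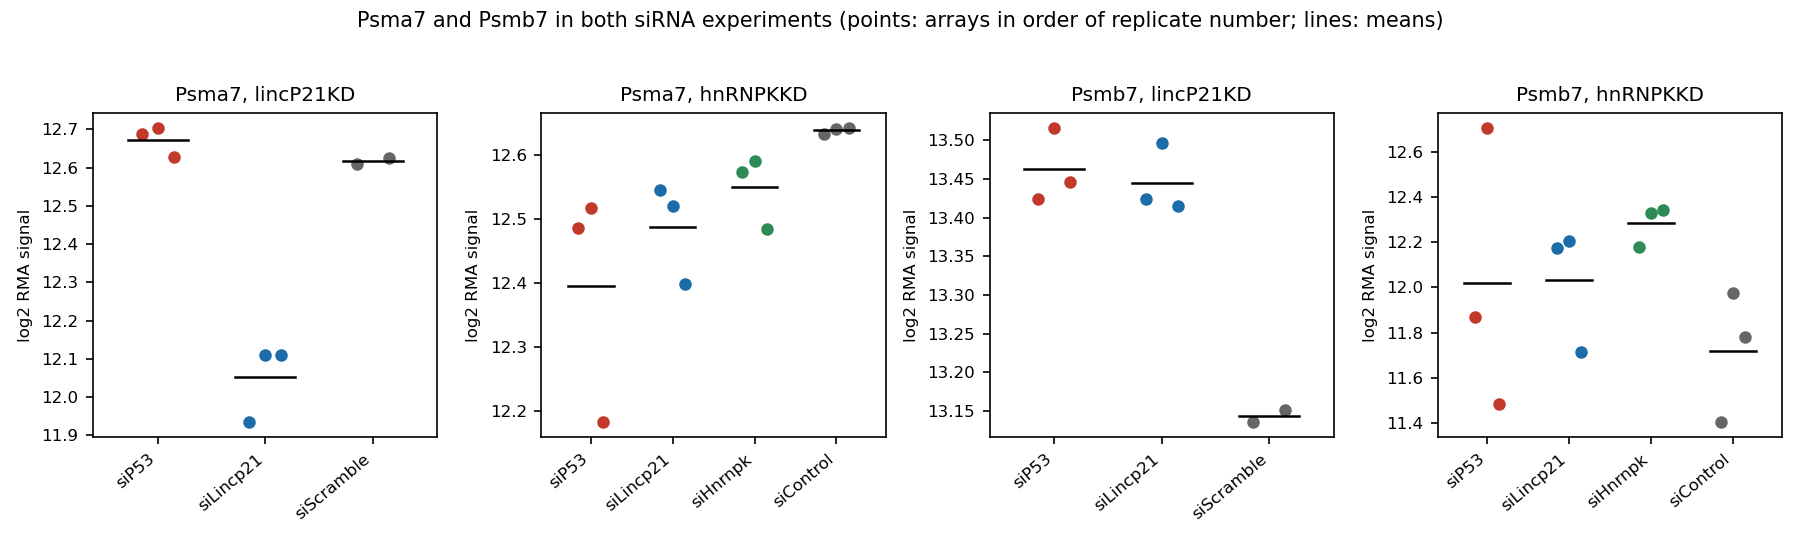
Log2 signal of Psma7 and Psmb7 on each array of both siRNA experiments (points in order of replicate number, lines at the means). Psma7 is low on the 3 siLincp21 arrays of the lincP21KD experiment, and Psmb7 is lowest on the 2 siScramble arrays there.

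Marker levels differed between these groups as well. The mean of the fibroblast markers lay between 13.37 and 13.49 with siP53 and between 13.48 and 13.62 with siLincp21, against 13.18 to 13.27 with siScramble. That of the macrophage markers lay between 5.73 and 5.83 with siP53 and between 6.11 and 6.21 with siLincp21, against 6.17 to 6.26, and that of the neural markers between 7.06 and 7.21 with siP53 and between 7.18 and 7.27 with siLincp21, against 6.88 to 6.89. Their part in the Psma7 and Psmb7 results was not tested.

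The other 30 subunits did not pass in that experiment. Beside 1 called higher with siP53 (7.01% of all tested genes) and none lower (5.74%), the 32 subunits had a median of -0.023, against 0.018 for all tested genes. With siLincp21, beside 1 higher (7.47%) and 1 lower (4.39%), the median was -0.048, against 0.011. In the direct test of siP53 against siLincp21, Psma7 was the 1 subunit called higher (9.22%) and none was lower (11.2%).

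Without overlap with the 2 siScramble arrays, 7 subunits were higher with siP53 (21.9%, against 25.1% of all tested genes) and 7 lower (21.9%, against 21.1%). With siLincp21, Psmb7 and Psmd11 were higher (6.25%, against 25.4%) and 10 subunits lower (31.2%, against 20.2%). Those 10 were Psma1, Psma7, Psmb5, Psmb6, Psmc1, Psmc4, Psmc6, Psmd12, Psmd13 and Psmd14. Of these, Psma7 alone passed the test. Between siP53 and siLincp21, 5 subunits were higher on all siP53 arrays (15.6%, against 18.4%) and none lower (19.9%), and the 5 were Psma1, Psma7, Psmd5, Psmd12 and Psmd14. Psmb5 had 11.93, 11.89 and 11.67 with siLincp21, against 12.005 and 12.07 with siScramble (-0.21 ± 0.092, adjusted p = 0.178, limma). Among uncalled members, Psmb2 (0.19) was the highest with siP53 and Psmb5 and Psmc3 (-0.11 each) the lowest. With siLincp21 the ATPase Psmc4 was the second lowest at -0.33 ± 0.15 (adjusted p = 0.199), and the lid subunit Psmd11 the second highest at 0.10.

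The siLincp21 effects of the 2 experiments were tested against each other in a joint fit. Psmd12 had 11.63, 11.66 and 11.74 with siLincp21 in the lincP21KD experiment, against 11.75 and 11.78 with siScramble (-0.086). The effect in hnRNPKKD minus that in lincP21KD was -0.39 ± 0.096 (limma adjusted p = 0.0162), and Psmd12 was the 1 subunit called, where 3.51% of all tested genes were lower and 4.63% higher. The call was lost without siScramble replicate 1 (-0.37, adjusted p = 0.0776) or 2 (-0.41, adjusted p = 0.0641). The siP53 effect differed between the experiments for none of the 32 (limma, 2 with an unadjusted p under 0.05), against 7.35% of all tested genes lower and 7.14% higher. Leaving out siP53 replicate 2 of hnRNPKKD gave 16 lower.

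In the time course, few subunits differed between AdenoCre and AdenoGFP cells. With the 5 times as pairs, 1 subunit was higher with AdenoCre and none lower (limma), where 12.9% of all tested genes were higher and 6.24% lower. The median difference of the 32 was 0.014, against 0.040 for all tested genes. Psmd8, a lid subunit, had 13.11, 13.12, 13.25, 13.25 and 13.31 with AdenoCre at 0, 1, 3, 6 and 9 h, against 13.00, 12.68, 12.92, 12.97 and 12.92 with AdenoGFP. It was higher with AdenoCre at all 5 times, by 0.31 ± 0.084 (SE, adjusted p = 0.0352, limma). Leaving out the pair at 1 h (0.28, adjusted p = 0.0800), 3 h (0.31, adjusted p = 0.121), 6 h (0.32, adjusted p = 0.0763) or 9 h (0.29, adjusted p = 0.0883) ended the call. Centring each array on its median also did (0.20, adjusted p = 0.168).

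Psmc4 had 11.95, 11.56, 11.20, 11.83 and 11.54 with AdenoCre, against 12.08, 12.30, 12.27, 11.91 and 11.87 with AdenoGFP over the same times. It was lower at all 5 times, most at 3 h, but did not pass (-0.47 ± 0.15, adjusted p = 0.0623, limma), and a second Psmc4 probe set had 0.076. Beside these, Psma2 was higher and Psma1 and Psmc2 were lower with AdenoCre at all 5 times, so that 2 of 32 subunits were always higher and 3 always lower. Of all tested genes 21.1% were always higher and 11.1% always lower. The second highest mean difference was that of Psmb3 (0.21) and the second lowest that of Psmc6 (-0.20). The mean of the fibroblast markers lay between 13.34 and 13.53 with AdenoCre, against 13.55 to 13.71 with AdenoGFP. That of the skeletal muscle markers lay between 5.96 and 6.22, against 5.69 to 5.78. Ranges of the other marker lists overlapped, and the part of marker levels in these results was not tested.

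No subunit passed the test for a change with hours of doxorubicin in AdenoCre cells (limma, 1 with an unadjusted p under 0.05), where 3.95% of all tested genes rose and 1.45% fell. None passed in AdenoGFP cells either (3 with an unadjusted p under 0.05), where 0.00789% of all tested genes rose and 0% fell. There 29 of 32 slopes were above 0, with a median of 0.018 per hour, against 7169 of 12674 and 0.0055 for all tested genes. The slopes of the viruses differed for none (1 with an unadjusted p under 0.05), against 0.181% of all tested genes with a higher slope in AdenoCre and 0% with a lower one. Slopes ran from -0.024 per hour for Psmd3 and -0.022 for Psmb2 up to 0.028 for Psmd2 and 0.041 for Psmc3 in AdenoCre cells. In AdenoGFP cells they ran from -0.041 for Psmc4 and -0.013 for Psmc6 up to 0.046 for Psmb3 and 0.056 for Psmd13. The mean of the 32 subunits lay between 12.11 and 12.18 on the AdenoCre arrays and between 12.04 and 12.25 on the AdenoGFP arrays, with the lowest value of both on the arrays at 1 h.

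**Figure D5:**
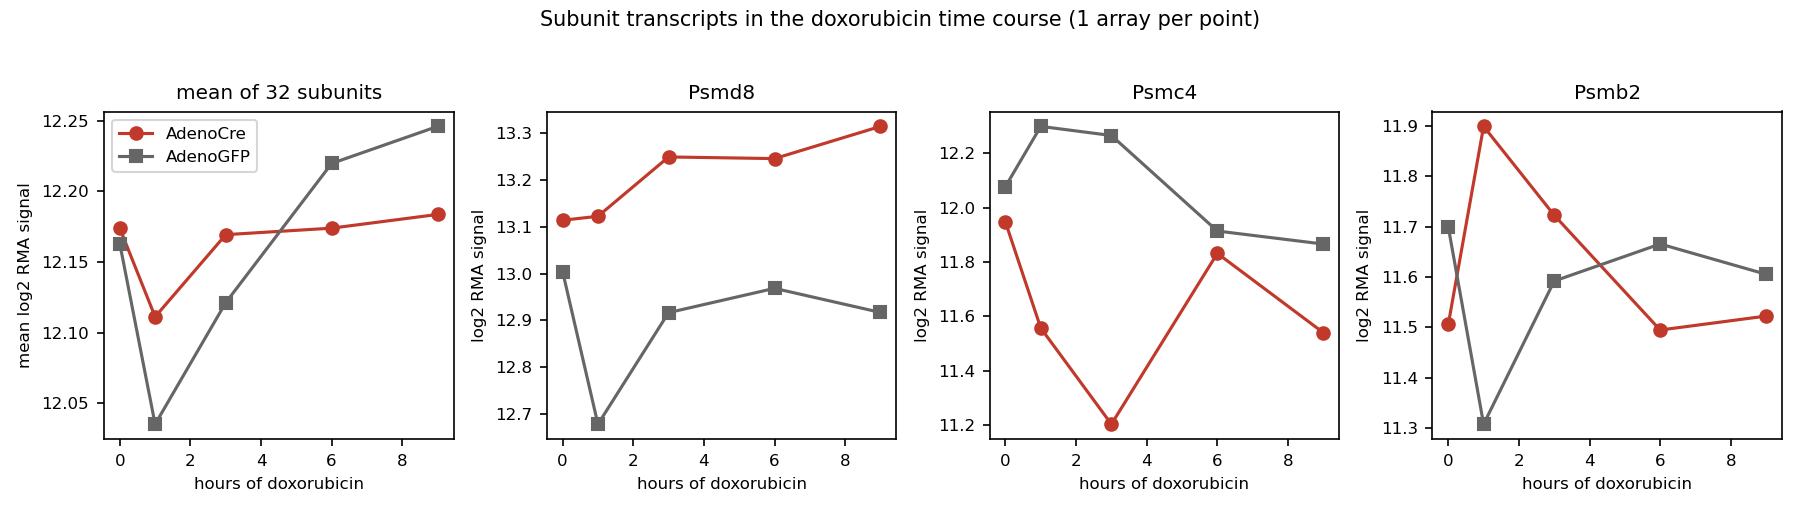
Mean of the 32 subunits, Psmd8, Psmc4 and Psmb2 (log2 signal) against hours of doxorubicin in AdenoCre and AdenoGFP cells, with 1 array per point. Psmd8 is higher and Psmc4 lower with AdenoCre at all 5 times, while the lines of the subunit mean and of Psmb2 cross.

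By role, the median difference between AdenoCre and AdenoGFP was -0.054 for the alpha ring, 0.052 for the beta ring, -0.074 for the ATPases and 0.031 for the non-ATPase subunits. At 1 h all 7 beta subunits were higher with AdenoCre, with a median of 0.26, and at 0 h 1 of the 7 was, with a median of -0.13. Of all tested genes 63.3% were higher with AdenoCre at 1 h, with a median of 0.12, and 55.2% at 0 h, with a median of 0.029. Each time is 1 array per virus, so these single differences have no replicate check. The AdenoGFP array at 1 h was the lowest of its group for 23 of the 32 subunits (71.9%), against 25.5% of all tested genes. By role these were 2 of 7 alpha subunits, 6 of 7 beta subunits, 3 of 6 ATPases and 12 of 12 non-ATPase subunits.

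Genes that act around the proteasome were read from 6 lists. These were the immunoproteasome and PA28 activator (4 genes tested), other subunits and activators (7), assembly chaperones (7), NFE2L1 and its processing (6), ubiquitin supply and delivery (10) and p53-linked ubiquitin ligases (7). Calls of these genes were not tested without the arrays of high actin difference. Psmb8, the interferon-inducible form of the chymotrypsin-like subunit, was the 1 of 4 immunoproteasome genes called with AdenoCre. It had 6.14, 6.42, 6.65, 6.32 and 6.07 with AdenoCre over the 5 times, against 7.06, 6.85, 7.22, 6.67 and 7.15 with AdenoGFP (-0.67 ± 0.12, limma adjusted p = 0.00917). With AdenoCre 6.24% of all tested genes were called lower and 12.9% higher. Psmb8 was higher with siP53 in the lincP21KD experiment (0.55, limma adjusted p = 0.00967), as were 7.01% of all tested genes. It had 5.04, 5.15 and 5.44 there, against 4.61 and 4.71 with siScramble, which lie near the signal limit of 4.54. With siP53 in the hnRNPKKD experiment Psmb8 was not called, at 4.67, 5.24 and 5.04, against 5.18, 4.68 and 5.12 with siControl. With siP53 in the hnRNPKKD experiment Psmb9 (-0.65) and Psme1 (-0.70) of that list were lower, as were 19.2% of all tested genes. Psmb9 also lay near the signal limit, with 4.80, 5.02 and 4.31 with siP53, against 5.47, 5.27 and 5.33 with siControl. Psme1 had 9.73, 10.40 and 9.13 with siP53, against 10.33, 10.48 and 10.53 with siControl, so replicate 2 lay within the siControl range.

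Uchl5, a deubiquitinase of the regulatory particle, was the 1 of 7 other subunits and activators called lower with siLincp21 in both experiments and with siHnrnpk. It had 10.12, 9.93 and 10.06 with siLincp21 in hnRNPKKD, against 10.61, 10.47 and 10.49 with siControl (-0.49, adjusted p = 0.00204, limma), and 10.49, 10.63 and 10.47 with siLincp21 in lincP21KD, against 10.90 and 10.94 with siScramble (-0.39, adjusted p = 0.0215, limma). With siHnrnpk it had 9.98, 9.85 and 9.99 (-0.58, adjusted p = 0.000641, limma). The groups did not overlap in any of these, as for 21.3%, 20.2% and 24.2% of all tested genes in the same order. Of all tested genes 11.8%, 4.39% and 12.8% were called lower there. With siP53 in hnRNPKKD Uchl5 was higher (0.36), as was the activator Psme3 (0.32), where 19.3% of all tested genes were higher. With AdenoCre Uchl5 was lower (-0.32, adjusted p = 0.0367, limma), as were 6.24% of all tested genes. It was lower at all 5 times, as were 11.1% of all tested genes.

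Of the 6 genes tested around NFE2L1, 2 were higher and 3 lower with siP53, 1 higher and 2 lower with siLincp21, and 2 higher and 1 lower with siHnrnpk in the hnRNPKKD experiment. Of all tested genes 19.3% were higher and 19.2% lower with siP53, 17.2% and 11.8% with siLincp21, and 14.1% and 12.8% with siHnrnpk. Ngly1, the glycanase that takes part in NFE2L1 activation, was higher with all 3 siRNAs there (0.45 with siP53, 0.89 with siLincp21, 0.56 with siHnrnpk) and with siLincp21 in lincP21KD (0.66). It had 9.91, 9.83 and 9.95 with siLincp21 in hnRNPKKD, against 9.07, 8.89 and 9.05 with siControl. Nfe2l1 was higher with siP53 (0.43, adjusted p = 0.0140, limma) and lower with siLincp21 (-0.37, adjusted p = 0.0346, limma). Its values were 8.60, 8.39 and 8.81 with siP53 and 7.81, 7.64 and 7.95 with siLincp21, against 8.06, 8.13 and 8.34 with siControl. Nfe2l2 of the same list was lower with siP53 (-0.55), at 11.10, 11.07 and 11.17, against 11.60, 11.54 and 11.85 with siControl. The small Maf partner Maff was lower with siP53 (-0.35), siLincp21 (-0.997) and siHnrnpk (-0.33) in hnRNPKKD. With AdenoCre Maff (0.57) and Mafk (0.54) were the 2 of 6 called, both higher, where 12.9% of all tested genes were higher.

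Among 10 genes of ubiquitin supply and delivery, 2 were lower with siP53, 4 lower with siLincp21, and 5 lower and 1 higher with siHnrnpk in the hnRNPKKD experiment, against none in the lincP21KD siP53 and siLincp21 comparisons and the virus comparison. Of all tested genes 19.2% were lower with siP53, 11.8% lower with siLincp21, and 12.8% lower and 14.1% higher with siHnrnpk. Ufd1, which helps the segregase Vcp hand over ubiquitinated proteins, was lower with all 3 siRNAs. It had 9.38, 9.51 and 9.48 with siP53, 9.45, 9.27 and 9.46 with siLincp21 and 8.80, 8.85 and 9.02 with siHnrnpk, against 9.84, 9.75 and 9.97 with siControl. Vcp itself was lower with siLincp21 (-0.41, adjusted p = 0.00637, limma). Of 7 assembly chaperones, Psmg2 was lower with AdenoCre (-0.28), Psmd10 with siP53 in lincP21KD (-0.26), and Psmd10 (-0.96) and Psmd9 (-0.61) with siP53 in hnRNPKKD. None passed with siLincp21 or siHnrnpk. Of all tested genes 6.24%, 5.74% and 19.2% were lower in these comparisons, in the same order. With siP53 in hnRNPKKD Psmd10 had 8.41, 9.26 and 8.08 and Psmd9 8.76, 9.15 and 8.19, both lowest on replicates 1 and 3. Of the 7 p53-linked ligases, 4 were lower with siP53 in lincP21KD (5.74% of all tested genes) and 3 in hnRNPKKD (19.2%). With AdenoCre 3 were higher (12.9%), and with siHnrnpk 1 was (14.1%). In each experiment 2 were higher and 1 lower with siLincp21 (7.47% and 4.39% in lincP21KD, 17.2% and 11.8% in hnRNPKKD). Mdm2, which marks p53 for the proteasome, was lower with siP53 in lincP21KD (-2.36) and hnRNPKKD (-3.22) and higher with AdenoCre (2.15). The F-box protein Skp2 was lower with siLincp21 in both experiments (-0.99 and -1.55). Fbxw7 of that list had 9.59, 9.48 and 9.61 with siLincp21 in hnRNPKKD, against 8.55, 8.57 and 8.53 with siControl.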

How the data were processed

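The authors deposited log2 signal computed with RMA, per the submitters' processing notes, with no version stated there. Those log2 values were used as deposited. Median signal per array was 4.98 to 5.03 (time course), 5.55 to 5.66 (lincP21KD) and 4.83 to 4.91 (hnRNPKKD), so no level was compared across experiments. Of 45101 probe sets, 34958 had 1 gene symbol, 932 several and 9211 none, and 34754 were updated to the GRCm38.p6 annotation. For each of 18194 genes the probe set of highest mean signal on the 30 arrays was kept. The lowest 40% of probe sets were left out (limit 4.54), which left 12674 genes. Each experiment was fitted on all its groups with limma 3.58.1 (R 4.3.3, eBayes without trend). The time course had time as a block for the virus effect and hours within virus for slopes, and the joint fit held both siRNA experiments. The fit was tested on simulated data with known changes. On arrays the number of arrays and the signal over background limit precision.

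The members and lists were chosen with earlier results of these data known. Members named are all those called and the 2 highest and 2 lowest of each comparison, and other lists name called genes. Psmd12, Psmd14, Psmb2, Psma6, Psmb1, Psma2, Psmd6, second probe sets and arrays set against the actin difference are also shown where chosen after their values were seen. Same-numbered arrays deviated together (all correlations over 0.1) only for siHnrnpk and siControl (0.216, 0.166 and 0.209), which comes from the data and not from the labels. Alternatives were median centring, quantile scaling, other filters, trend and robust variances, array weights, the mean of probe sets, a replicate block, log2 hours, only the groups compared and leaving out each array. Those on the actin difference and the left-out arrays of the joint fit were added after seeing the data. Trp53, lincRNA-p21 (Trp53cor1) and an experiment with RAS were not analysed here. Some listed genes around the proteasome were not analysed here, and Psmb11 and Psma8 lay below the limit.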

Additional observations from a re-analysis of the deposited data

Results flagged for a closer look

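In 4 of 64 subunit and virus groups 1 array lay far from the other 4 by Dixon's test. Its rate of about 1 in 20 by chance holds for independent groups of replicates. Here the arrays of a group are different times and the 32 subunits share them, so that rate does not apply. All 4 flagged values were on AdenoGFP arrays. Psma5 had 13.25 at 6 h, against 12.83 to 12.92 at the other times. The other 3 were low at 1 h: Psmb2 had 11.31 (others 11.59 to 11.70), Psmb4 had 12.64 (others 12.87 to 12.92) and Psmd8 had 12.68 (others 12.92 to 13.00). That array at 1 h was the lowest AdenoGFP array for 23 of the 32 subunits, against 25.5% of all tested genes. The siLincp21 effect on Psmd12 differed between experiments by -0.391 (hnRNPKKD minus lincP21KD) in the joint limma fit.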

How the results depend on the processing

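Values are subunits called higher or lower, out of 32, unless named as a median or as all genes, and a pair of counts gives higher, then lower. The cause of these changes was not tested. Some settings also had fewer arrays or genes in the test. Leaving out 1 array or time pair gave these lowest and highest values. AdenoCre against AdenoGFP had 0 to 1 higher and a median from -0.0236 to 0.0391. In lincP21KD siP53 had 0 to 1 higher and siLincp21 0 to 1 higher. In hnRNPKKD siP53 had 1 to 16 lower and siLincp21 2 to 4 lower. Against siLincp21, siP53 had 4 to 9 higher and 1 to 11 lower with a median from -0.133 to 0.139, and siHnrnpk 1 to 2 higher. Against siP53, siHnrnpk had 1 to 17 higher and 0 to 3 lower with a median from 0.0319 to 0.291. Between experiments the siP53 effect had 0 to 16 lower with a median from -0.361 to -0.139, and the siLincp21 effect 0 to 1 lower.

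With arrays centred on their medians, AdenoCre had 0 higher and 1 lower (median -0.0932), lincP21KD siLincp21 0 higher (median -0.102), siP53 minus siLincp21 there a median of 0.104, and hnRNPKKD siP53 1 lower. Quantile scaling, leaving out the lowest 60% and trend with robust variances each gave siHnrnpk 1 lower and the siLincp21 difference between experiments 1 higher. Quantile scaling and no filter each gave siHnrnpk minus siLincp21 1 higher. Trend and robust variances gave AdenoCre 2 higher and 1 lower, and siHnrnpk minus siP53 1 lower. Array weights, whose estimation stopped before its tolerance in 2 fits, gave AdenoCre 2 higher and 1 lower, siP53 2 and 17, siLincp21 1 and 16, siHnrnpk 3 and 4, siP53 minus siLincp21 11 and 13, siHnrnpk minus siP53 18 and 7, siHnrnpk minus siLincp21 17 higher, the siP53 difference between experiments 16 lower and that of siLincp21 1 and 6. The mean of probe sets gave lincP21KD siP53 a median of 0.0104, siLincp21 2 lower and siP53 minus siLincp21 2 higher, and in hnRNPKKD siHnrnpk 2 lower, siHnrnpk minus siP53 4 and 1, siHnrnpk minus siLincp21 4 higher, the siP53 difference 1 lower and the siLincp21 difference 2 lower.

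With the replicate block, siP53 had 10 lower and siHnrnpk minus siP53 4 higher; the block changed no other subunit count by more than 1.5 times, and the pairing check held only for siHnrnpk and siControl. With only the groups compared, siP53 had 0 lower, siHnrnpk 1 and 1, siP53 minus siLincp21 3 and 0, siHnrnpk minus siP53 1 higher and siHnrnpk minus siLincp21 8 higher. Without the arrays of high actin difference, siP53 had 1 and 0, siLincp21 1 and 16, siHnrnpk 2 and 5, siP53 minus siLincp21 11 and 0 (median 0.241), siHnrnpk minus siP53 4 lower (median -0.108), siHnrnpk minus siLincp21 7 higher, the siP53 difference 1 higher (median -0.0101) and the siLincp21 difference 1 and 4. Psmc3 was then -0.00222 for siHnrnpk minus siP53. With that difference as a covariate, siP53 had 2 and 10, siLincp21 1 and 16, siHnrnpk 3 and 10, siP53 minus siLincp21 11 higher, siHnrnpk minus siP53 2 lower (median -0.00799) and siHnrnpk minus siLincp21 12 higher.

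Counts over all genes moved by more than 1.5 times as follows. Array weights gave 2430 for lincP21KD siLincp21 (1503 as reported), 8869 for hnRNPKKD siP53 (4888), 5663 for siLincp21 (3678), 5753 for siHnrnpk (3408), 8927 for siP53 minus siLincp21 (4912), 9776 for siHnrnpk minus siP53 (5744), 5974 for siHnrnpk minus siLincp21 (3501), 6258 for the siP53 difference between experiments (1837) and 2797 for that of siLincp21 (1032). The actin covariate gave 5683, 5463 and 5328 for siLincp21, siHnrnpk and siHnrnpk minus siLincp21, and leaving out those arrays gave 932 and 1570 for the siP53 and siLincp21 differences. No time block gave AdenoCre against AdenoGFP 1304 (2427), and log2 hours gave the AdenoCre slope 439 (684), the slope difference 5 (23) and the AdenoGFP slope 0 (1). The slope difference had 43 centred, 36 by quantile, 9 at 60%, 41 with trend and 1 with weights, and the AdenoGFP slope 2 centred or by quantile. Leaving out 1 array or pair gave 1146 to 2055 for the viruses, 204 to 424 and 0 to 19 for the AdenoCre slope and slope difference, 620 to 1313 (1615), 286 to 1377 and 1627 to 2345 (2590) for lincP21KD siP53, siLincp21 and their difference, and 936 to 4351 and 388 to 898 for the siP53 and siLincp21 differences.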
